A study of Mus musculus with 13 samples.

Results

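The genes for the proteins of the cytoplasmic ribosome were examined in ChIP-seq lists from the murine hepatoma line Hepa 1-6, named Hepa 1.6 in the labels. Members were the protein-coding genes of the mouse assembly mm9 (GENCODE M1 annotation) whose symbol is Rpl or Rps followed by digits and at most 1 letter, together with Rplp0, Rplp1, Rplp2 and Rpsa. Pseudogenes and the Rps6k kinases were left out. This gave 80 of 22367 protein-coding genes, of which 45 encode proteins of the large subunit, 32 of the small subunit and 3 of the P stalk of the large subunit. They lay on 19 chromosomes, 4 of them on X, and had a median length of 3306 bp against 15427 bp over all protein-coding genes.

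The study asked how KAP1 (gene Trim28), a corepressor brought to DNA by zinc finger proteins, relates to transcription by the RNA polymerases. KAP1 and the histone marks H3K27ac, H3K4me1 and H3K9me3 were profiled in untransduced cells under standard culture. The polymerases that make messenger RNA (PolII) and small RNAs such as transfer RNA (PolIII) were profiled 5 days after delivery of a vector. Cells received either a short hairpin RNA against KAP1 (Kap1 KD) or a control vector (control). Delivery was by lentiviral transduction in the methods and by transfection of a plasmid in the labels. The control vector is a control hairpin in the labels and an empty vector in the methods. Both conditions were under puromycin selection in the methods. Of 13 samples, 8 have a list of called regions, each from 1 library, and the 5 input samples were not analysed here. No value has a replicate error, no test was made, and a difference between conditions is a difference between the 2 libraries. An interval given with a percentage is a 95% Wilson interval, which covers counting error over genes only. Many percentages are given without one.

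Ribosomal proteins assemble with ribosomal RNA into the large and small subunits, and the cell makes them in near-equal amounts because a subunit needs each of them. Their genes are short, have promoters rich in CpG and, in growing cells, are among the most heavily transcribed genes of PolII. Transcripts start in a run of pyrimidines that also governs their translation, and many introns of these genes carry small nucleolar RNAs. H3K27ac and H3K4me1 mark active regulatory chromatin, H3K4me1 typically beside rather than on an active start site, and H3K9me3 marks silenced chromatin, the form KAP1 is best known for setting up.

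The promoter windows of 7 members are shown from 60 bases before to 40 bases after the annotated 5′ end, 5′ to 3′ on the strand of the gene, to let the sequences of promoters with and without KAP1 be read side by side. Capitals mark every match, on either strand, to CTTTCC (found in pyrimidine tracts at the start of these genes), TATAAA (bound by TBP), CCGGAAG (ETS factors), AAGATGG (YY1), GGGCGG (GC box), CCAAT (bound by NF-Y) or CACGTG (E box). None of these motifs contains another. The first 4 are the members with the highest KAP1 score over the promoter, in mm9 at chr12:70260133-70260233 (minus strand) for Rps29, chr2:179992022-179992122 (plus strand) for Rps21, chr4:3762772-3762872 (minus strand) for Rps20 and chr7:25669330-25669430 (plus strand) for Rps19.
Rps29: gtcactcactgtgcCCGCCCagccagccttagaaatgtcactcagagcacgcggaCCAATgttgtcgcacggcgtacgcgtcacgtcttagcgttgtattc
Rps21: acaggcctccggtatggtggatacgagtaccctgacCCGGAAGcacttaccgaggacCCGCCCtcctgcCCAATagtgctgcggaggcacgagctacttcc
Rps20: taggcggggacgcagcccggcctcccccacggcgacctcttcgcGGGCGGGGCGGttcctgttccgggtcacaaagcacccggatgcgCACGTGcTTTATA
Rps19: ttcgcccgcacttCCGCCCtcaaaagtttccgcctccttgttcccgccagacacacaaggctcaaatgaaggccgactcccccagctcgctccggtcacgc

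The next 3 are among the members earliest in the genome with a control PolII peak and no KAP1 peak over the promoter, at chr2:26766224-26766324 (plus strand) for Rpl7a, chr3:90017533-90017633 (minus strand) for Rps27 and chr3:130433276-130433376 (minus strand) for Rpl34.
Rpl7a: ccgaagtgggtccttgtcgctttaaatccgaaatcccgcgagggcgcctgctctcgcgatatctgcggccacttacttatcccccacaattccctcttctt
Rps27: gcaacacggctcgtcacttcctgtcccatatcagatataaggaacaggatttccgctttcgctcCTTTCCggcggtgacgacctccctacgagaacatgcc
Rpl34: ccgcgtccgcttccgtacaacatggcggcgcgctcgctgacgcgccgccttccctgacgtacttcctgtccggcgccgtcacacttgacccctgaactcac

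The windows of Rps21 and Rps20, which code for proteins of the small subunit, held 3 and 4 matches, that of Rps29 held 2 and that of Rps19 held 1. Among the promoters without KAP1, Rps27 had 1 match and the windows of Rpl7a and Rpl34 had none. These few windows cannot stand for all promoters with and without KAP1. Within 250 bp of the annotated end, Rpl7a and Rpl34 both held GGGCGG. So did 78.4% of the 37 members with KAP1 and 74.4% of the 43 without. A CTTTCC tract lay 4 bases after the annotated end of Rps27. The annotated 5′ end is the outermost start of any transcript of the gene, and 61 of the 80 members had more than 1 annotated start, so the base where most transcripts begin can lie further inside the gene.

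Over the whole promoter (the 250 bp on either side of the gene start in the annotation), members had a median GC content of 59% and a median observed to expected CpG ratio of 0.858, against 57.1% and 0.588 over all protein-coding genes and 63.9% and 0.857 over genes with control PolII at the promoter. CTTTCC was present in 43 of 80 members (53.8%) against 38.3% of all promoters, CCGGAAG in 32 (40%) against 14.4%, AAGATGG in 19 (23.8%) against 10.9%, and CACGTG in 15 (18.8%) against 10.4%. GGGCGG was present in 61 (76.2% against 52.6%), TATAAA in 10 (12.5% against 16.7%) and CCAAT in 29 (36.2% against 48.1%). Among genes with control PolII over the promoter the shares were 37.6% for CTTTCC, 30% for CCGGAAG, 12.4% for AAGATGG and 14.5% for CACGTG. They were 81.1% for GGGCGG, 9.11% for TATAAA and 42% for CCAAT. No interval was computed for the motif shares and no difference was tested. The 10 members with TATAAA are too few to place the group against either share. A run of at least 6 pyrimidines reaching within 10 bases of the annotated end was present in 31 members (38.8%) against 29.6% of all promoters. The lowest CpG ratios belonged to Rpl3l (0.0786), Rps2 (0.149) and Rps10 (0.251).

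KAP1 lay over the promoter of 37 of 80 ribosomal protein genes (46.2%, interval 35.7 to 57.1%), against 15.7% of all protein-coding genes. By subunit, these were 18 of 45 genes of the large subunit, 17 of 32 of the small subunit and 2 of 3 of the P stalk. Over the gene body (the rest of the gene), KAP1 was called in 41 members against 23.7% of all genes, but the same peak often reached both: all 37 members with KAP1 at the promoter also had it in the body. The body count fell to 7 when the centre of the region had to lie in the body, to 8 when the first 1000 bp were left out and to 2 when 50% of the body had to be covered. Where control PolII was present at the promoter, 33 of 66 members (50%, interval 38.3 to 61.7%) had KAP1, against 53.1% of the 2941 protein-coding genes with control PolII there. The share among members was thus close to that of other promoters with PolII. This split by PolII was chosen after the counts had been seen.

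**Figure D1:**
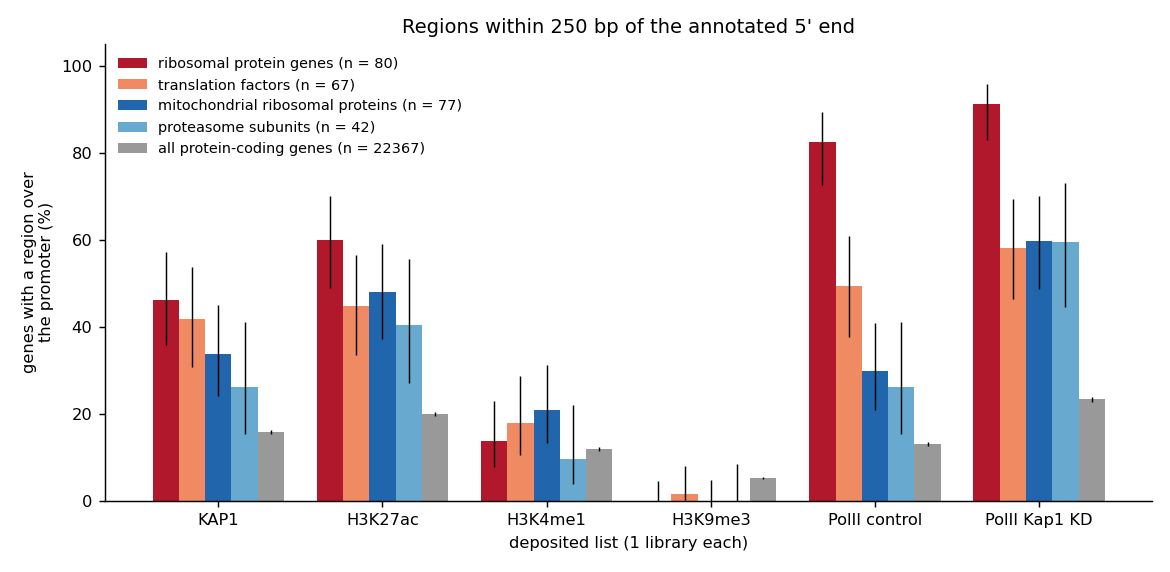
Bars give the percentage of genes (vertical axis) with a region of each list (horizontal axis) within 250 bp of the annotated 5′ end, and error bars are 95% Wilson intervals over genes. The ribosomal protein genes stand at 82.5% for control PolII and 91.2% for Kap1 KD PolII, above every other gene set drawn, while for KAP1 their interval of 35.7 to 57.1% overlaps that of the translation factors.

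The KAP1 peaks over these promoters mostly sat on the annotated start. Their median width was 1180 bp (782 to 2701 bp), close to the 1146 bp over all protein-coding genes with KAP1 at the promoter, and the centre of the highest-scoring peak lay within 250 bp of the 5′ end in 32 of 37 members (86.5%), against 65.2% of the 3522 protein-coding genes with KAP1 there, 80.8% of the mitochondrial ribosomal protein genes, 81.8% of the proteasome subunit genes and 64.3% of the translation factor genes. The score the authors' peak caller gave ranged from 50.6 to 3100 with a median of 118, and the median percentile in the whole list was 57.2, that is, 57.2% of KAP1 peaks scored lower. Over all protein-coding genes the median score was 103 and the median percentile 50.7. Only 2 members had a peak in the top 10% of the list, which is 5.41% of those with KAP1 against 8.23% over all genes with KAP1.

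The highest score was that of Rps29, which encodes a zinc-binding protein of the small subunit: 3100, at the 98.7th percentile and shared by 152 peaks of the list. Rps21 had 460.01, Rps20 had 397.95, Rps19, whose human counterpart is mutated in Diamond-Blackfan anaemia, had 372.35, and Rps18 had 243.67. Next, almost level with Rps18, came Rpl27 of the large subunit with 242.38. At the other end were Rps14 with 50.61, Rpl29 with 53.44, Rps9 with 53.89, Rpl7 with 56.47 and Rpl27a with 59.26, all near the lowest score of the list, 50. Rpl3, which lies at the catalytic centre of the large subunit, had 228.45. The KAP1 peak of Rps21 was the widest, and its centre lay 977 bp upstream of the annotated start.

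**Figure D2:**
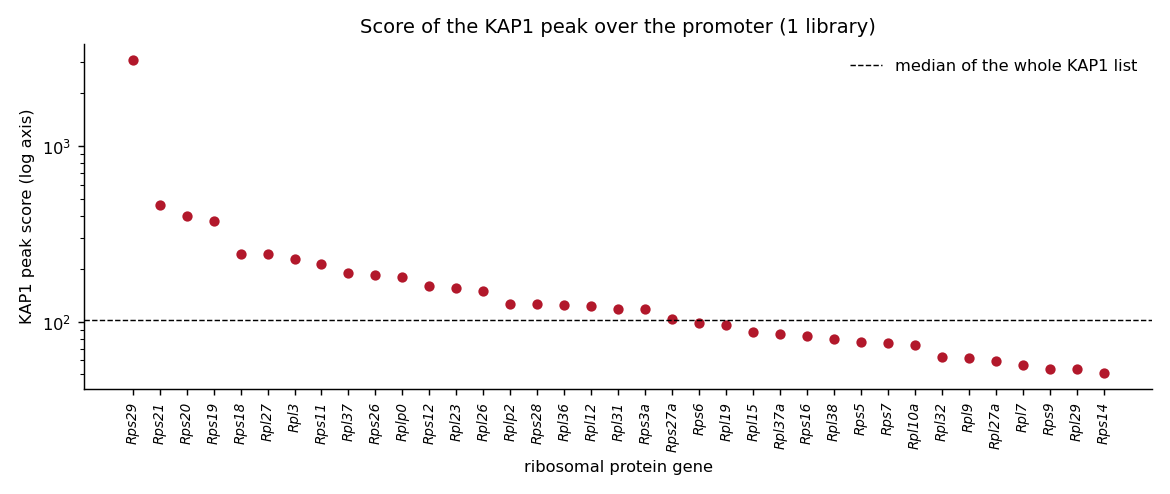
Points give the score of the KAP1 peak over the promoter (vertical axis, logarithmic, no unit) for each of the 37 ribosomal protein genes that have one, in order of score; the dashed line is the median of the 12470 KAP1 peaks. Rps29 stands apart at 3100 and the other genes run from 460.01 down to 50.61.

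The surroundings of Rps29 differed from those of the other members in the polymerase lists as well. It was the only member with PolIII over the promoter, in both conditions (1 of 80, against 0.344% of all protein-coding genes in the control and 0.134% under Kap1 KD). The control PolIII peak, at chr12:70260215-70260785, had a score of 151 (97.1st percentile of that list) and shared no base with the gene. The Kap1 KD peak, at chr12:70260118-70260707, had a score of 65 (87.2nd percentile) and reached 56 bp into it. An annotated RNA gene of unspecified class, AC099934.1, 297 bp long and on the opposite strand, lies under both peaks, 109 bp from the 5′ end of Rps29, and the KAP1 peak (chr12:70259689-70261119) spans it whole. The KAP1 and PolIII regions there cannot be assigned to Rps29 or to this RNA gene. No member had PolIII in the gene body (0 of 80, interval 0 to 4.58%). Over all genes it was called there in 3.51% in the control and in 0.572% under Kap1 KD. Both shares lie within the interval, and the members are shorter, with a median of 3306 bp against 15427 bp.

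H3K27ac was called over the promoter of 48 members (60%, interval 49 to 70%), against 20.0% of all protein-coding genes and 60.1% of those with control PolII at the promoter, where 42 of 66 members (63.6%) had it. In the gene body it was called in 70 members (87.5%) against 41.0% of all genes, and in 60 of the 66 (90.9%) against 88% of all genes with control PolII at the promoter. The mark flanked the start: 11 members were covered 50 bp upstream of it, 34 at 450 bp upstream and 60 (75%) at 850 bp downstream, the most of any position. Over genes with control PolII at the promoter the largest share was 59.3%, at 950 bp downstream. The median share of the gene under H3K27ac was 36.9%, and the 7 members without it in promoter or body were Rpl7a, Rpl11, Rps15, Rps7, Rpl39 and the paralogs Rpl10l and Rpl39l.

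H3K4me1 was called over the promoter of 11 members (13.8%, interval 7.85 to 23%), near the 11.9% of all genes. Among genes with control PolII there it was called in 10 of 66 members (15.2%, interval 8.44 to 25.7%) against 22.8% of all such genes, a value within the interval. In the body it was called in 68 members (85%) against 50.5% of all genes, and in 60 of 66 members with control PolII (90.9%) against 93.4% of all genes with control PolII. The body shares of mitochondrial ribosomal protein and proteasome subunit genes were 89.6% and 88.1%. The promoter count rests on the window: it was 27 at 500 bp to each side, 43 at 1000 bp and 1 when 50% of the window had to be covered. Within the genes the mark began well past the start. At 950 bp downstream of the 5′ end 10 members were covered, at 1950 bp 42, and the largest number, 55 (68.8%), stood at 2350 bp, whereas for genes with control PolII the largest share (68.6%) stood at 1650 bp. Upstream of the start 27 members were covered at 950 bp and 23 at 450 bp, more than at the same distances downstream (10 and 2). Genes with control PolII had the same asymmetry, with 56.7% and 41% covered upstream and 44.6% and 8.06% downstream, and their upstream shares were above the 33.8% and 28.8% of the members. At the 3′ end 44 members (55%) were covered 450 bp before it and 40 (50%) at 450 bp past it, against 13.5% and 12.6% of genes with control PolII and 5.03% and 4.99% of all genes, so that in many of these short genes the mark ran over the end of the gene.

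**Figure D3:**
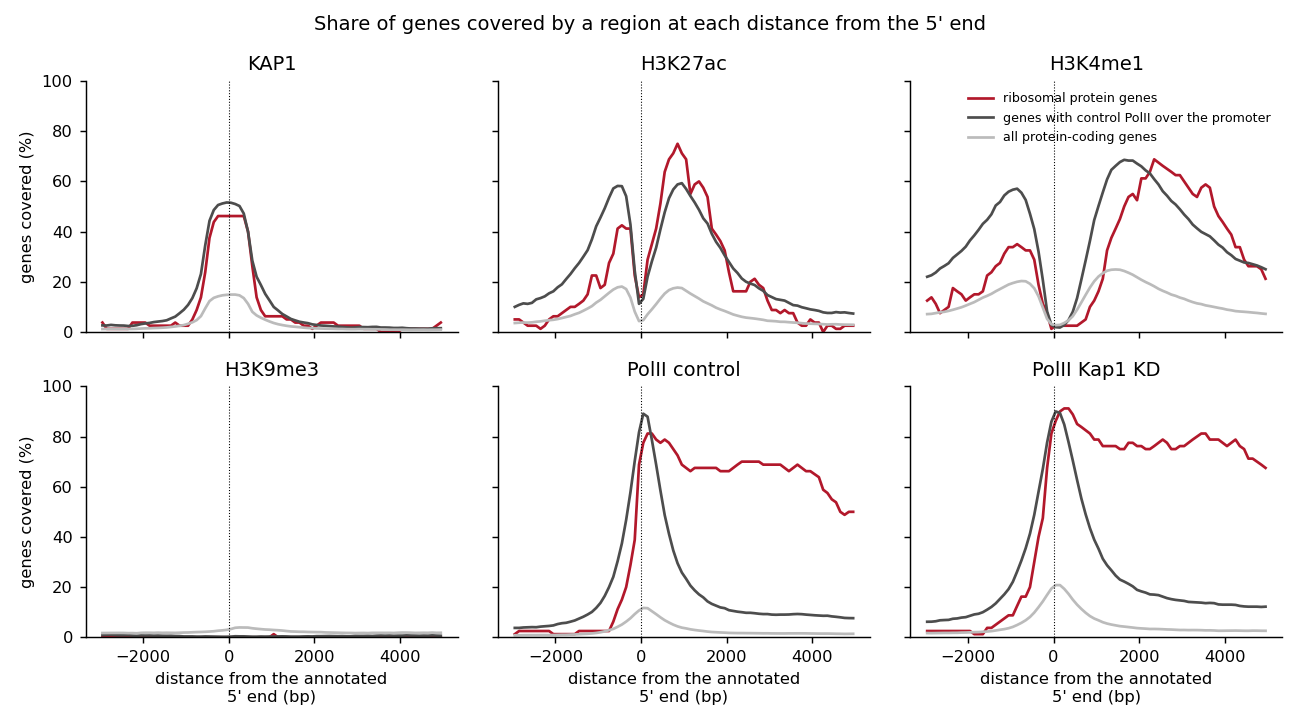
Lines give the percentage of genes covered by a region (vertical axis) in steps of 100 bp from 3000 bp upstream to 5000 bp downstream of the annotated 5′ end (horizontal axis) for the 80 ribosomal protein genes, the 2941 genes with control PolII over the promoter and all protein-coding genes. KAP1 forms a block centred on the start, H3K27ac and H3K4me1 dip there, and PolII over ribosomal protein genes remains above 50% at 3 kb downstream, which is past the gene end for many of them, while that of other genes with PolII drops away.

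H3K9me3 was not called over the promoter of any of the 80 members (0 of 80, interval 0 to 4.58%), against 5.24% of all protein-coding genes but 0.476% of those with control PolII there, and it was called at none of the 77 mitochondrial ribosomal protein or 42 proteasome subunit promoters and at 1 of 67 translation factor promoters (1.49%). In the gene body it was called in 1 member (1.25%) against 23.2% of all genes, 17.1% of those with control PolII at the promoter, 2.6% of the mitochondrial ribosomal protein genes, 4.76% of the proteasome subunit genes and 16.4% of the translation factor genes. That member was Rpl15, a protein of the large subunit, where a region of 76 bp at chr14:19102793-19102868 covered 2.13% of the gene. A body count depends on gene length. The median length was 3306 bp for members, 15427 bp for all genes and 17726 bp for those with control PolII at the promoter. Body shares were not compared at matched length, so the low count cannot be read as a depletion. Rpl15 also carried KAP1, with a score of 86.72, and its promoter window overlaps that of Nkiras1. The 163 ribosomal protein pseudogenes, copies that arose by reinsertion of the messenger RNA, had the opposite pattern: 33 (20.2%) had H3K9me3 at their 5′ end, while KAP1 was called at 3 (1.84%), H3K27ac at 5, H3K4me1 at 8 and control PolII at 2. Pseudogenes and genes share sequence, and a read from one can be placed on the other where the copies are near-identical.

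PolII was called at most genes of the group. In the control it was called over the promoter of 66 of 80 members (82.5%, interval 72.7 to 89.3%), against 13.1% of all protein-coding genes, and over the body of 70 against 14.9%. Under Kap1 KD the promoter count was 73 (91.2%, interval 83 to 95.7%) against 23.3%, and the body count 76 against 27.2%. The Kap1 KD list is 2.56 times as long as the control list, and the background moved with it. Control PolII was present at 36 of 45 genes of the large subunit, 27 of 32 of the small subunit and 3 of 3 of the P stalk, and Kap1 KD PolII at 39, 31 and 3.

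The peaks were long and ran through the gene. The median width of the highest-scoring control peak over a member's promoter was 4998 bp (280.0 to 12555 bp), against 945 bp over all protein-coding genes with such a peak and 1445 bp over those of at most 5000 bp. By score, 46 of 66 (69.7%) were in the top 10% of the list, against 12.3% of all genes with such a peak and 35.8% of those of at most 5000 bp. Control PolII covered the whole gene in 42 of 80 members (52.5%, interval 41.7 to 63.1%) against 1.01% of all genes, and Kap1 KD PolII in 50 (62.5%, interval 51.5 to 72.3%) against 1.42%. Gene length bears on this value directly. Among genes of at most 5000 bp with control PolII at the promoter, 41 of 55 members (74.5%, interval 61.7 to 84.2%) were covered whole against 34.3% of all such genes, and under Kap1 KD 45 of 60 (75%, interval 62.8 to 84.2%) against 29.7%. In 44 of 66 members the control peak continued past the annotated 3′ end (66.7%), against 8.09% of all genes with such a peak and 36.3% of those of at most 5000 bp. At 950 bp beyond that end 62 of 80 members (77.5%) were covered by control PolII, against 3.74% of all genes and 18.6% of genes with control PolII at the promoter.

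Of the 42 genes covered whole in the control, the earliest in the genome were Rpl7, Rpl31, Rpl37a, Rpl7a and Rpl12, all of the large subunit, and each was covered whole under Kap1 KD too. Their control peaks were 9494, 9168, 6248, 4334 and 6124 bp wide, and their Kap1 KD peaks 9015, 9859, 6715, 4778 and 6217 bp. The control peak of Rpl3 had the highest score of any member, 662 (98.8th percentile), and that gene also had the highest score under Kap1 KD, 1370 (99.6th percentile). At the low end, 9 members had no control PolII in the gene. Among those with a control peak over the promoter, the long annotated genes Rpl24 (42639 bp) and Rpl11 (25164 bp), whose product binds Mdm2 when ribosome assembly fails, were covered to 3.96% and 3.65% in the control.

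**Figure D4:**
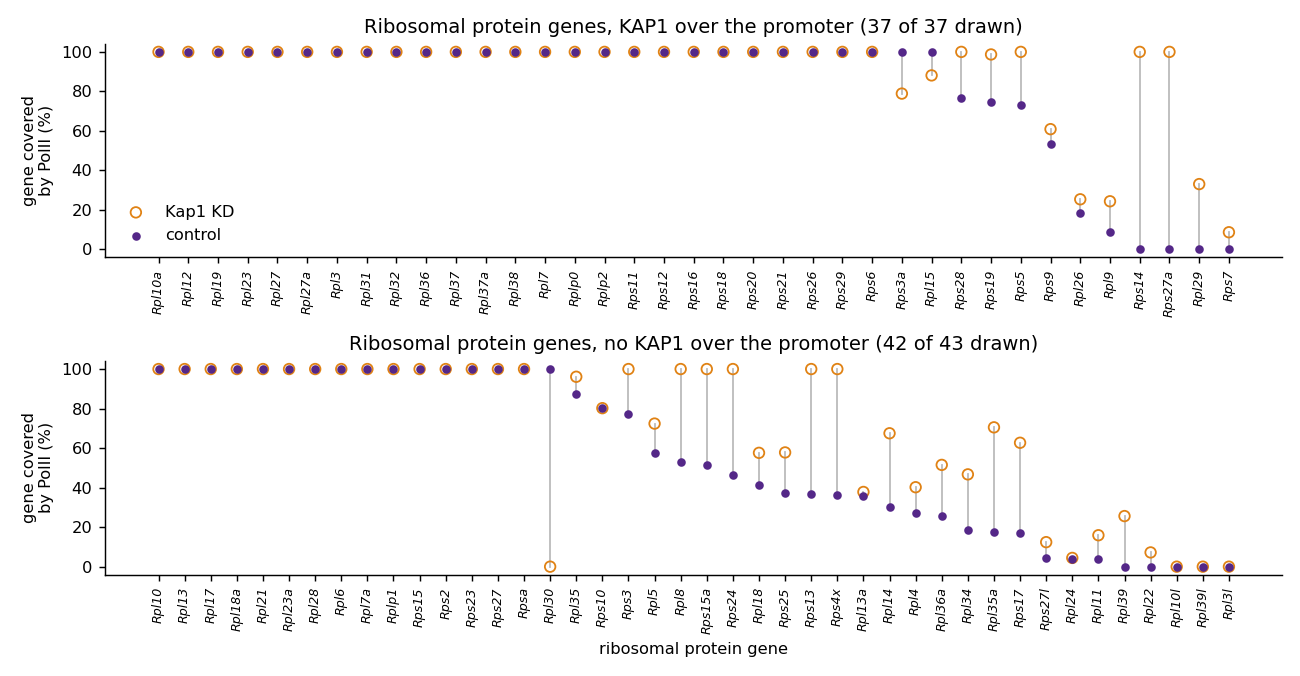
Points give the percentage of each ribosomal protein gene under a PolII peak (vertical axis) in the control (filled) and under Kap1 KD (open), for the 37 genes with KAP1 over the promoter and the 43 without (1 of which is not drawn), in order of the control value; grey lines join the conditions. Most genes with KAP1 sit at 100% in both conditions, and Rpl30 is the gene with full control coverage and none under Kap1 KD.

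Members with and without KAP1 at the promoter were set side by side. Control PolII covered the whole gene in 26 of 37 with KAP1 and in 16 of 43 without, with medians of 100% and 53.2%. Median gene lengths were 3243 and 3431 bp, but the class without KAP1 held the longest genes: 32 of 37 with KAP1 and 31 of 43 without were at most 5000 bp long, and the longest were 5626 and 42639 bp. H3K27ac lay over the promoter of 26 of 37 and of 22 of 43, and H3K4me1 over 4 and 7. The most frequent combination over the promoter, in 21 genes, was KAP1, H3K27ac and PolII in both conditions without H3K4me1. A further 14 had PolII in both conditions with none of the other 3 lists, and 13 had PolII in both conditions with H3K27ac alone. The promoter sequences of the 37 and the 43 were close in GC content (59.5% and 58.1%) and in the share with CTTTCC (56.8% and 51.2%). They were also close for GGGCGG (78.4% and 74.4%), CCAAT (35.1% and 37.2%) and CACGTG (18.9% and 18.6%). CCGGAAG was present in 48.6% and 32.6%, AAGATGG in 18.9% and 27.9%, and TATAAA in 16.2% and 9.3%. These differences were not tested, and the classes differ in control PolII as well, which lay over the promoter of 33 of 37 and 33 of 43.

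The comparison of control with Kap1 KD cells asked where PolII differed after KAP1 was depleted. Of the 66 members with control PolII over the promoter, 65 had Kap1 KD PolII there (98.5%, interval 91.9 to 99.7%) against 94.4% of all genes with control PolII. Of the 14 without it, 8 had Kap1 KD PolII, against 12.6% of all genes without control PolII. When Kap1 KD peaks were kept from the top score down until both lists were equally long, 67 members had Kap1 KD PolII. Of those, 63 were among the 66, which left 4 of the 14. The shares over all genes were not computed at that length, and the 94.4% and 12.6% belong to the full list. Of the 14 without control PolII, 4 had KAP1 over the promoter and all 4 had Kap1 KD PolII in the full list. So did 4 of the 10 without KAP1. The same split was not made over all genes without control PolII, so these small counts cannot be read as particular to the members. The lists number their peaks in genome order with gaps, since 31.3% of the numbers in the control list and 22.6% in the Kap1 KD list were missing, so a call may have been removed before deposit.

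Rpl35 and Rps25 had no control peak over the promoter but had one inside the gene, covering 87.2% and 37.4% of it, against 96.1% and 57.8% under Kap1 KD. Rps27a, whose product is a fusion with ubiquitin, and Rps14 had no control PolII at all and were covered whole under Kap1 KD, with scores of 608 and 680 (98.1st and 98.4th percentiles). Rpl29, Rps7 and Rpl39 had no control PolII and narrow Kap1 KD peaks of 985, 552 and 737 bp. For each of these last 5 genes 1 number was missing from the control list between the peaks on either side, so absence in the control is not certain. These peaks stood 142 kb apart around Rps14 and 165 kb apart around Rps27a, but 3066 kb apart around Rpl29, 10431 kb around Rps7 and 14810 kb around Rpl39, so the missing call can lie far from the gene. Rpl22 was the remaining gene of the 8, with no number missing, and its Kap1 KD peak was 847 bp wide with a score of 59 (59.5th percentile). Rpl30 was the reverse case: its control peak was the widest of any member, at 12555 bp with a score of 568, and no Kap1 KD peak touched the gene, but 1 number was missing from that list between peaks 188 kb apart around it.

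Over the 65 members called in both conditions the peak was wider under Kap1 KD in 56 (86.2%) and narrower in 9, against 77.9% wider over the 2777 protein-coding genes called in both. The median width was 4930 bp in the control and 6217 bp under Kap1 KD, and the median of the ratios was 1.15 against 1.34 over all genes. The score is set within each list, so it was not compared between them. The median percentile within its own list was 94 for control and 97.6 for Kap1 KD, but the lists held 5015 and 12862 peaks, and weaker peaks added to a list raise the percentile of a strong peak that has not changed. Without KAP1 the median width ratio was 1.36 (32 genes), with KAP1 1.08 (33 genes), and the classes already differed in the control, with median widths of 3747 and 6124 bp. Of the 13 members whose peak was at least 2 times as wide under Kap1 KD, 2 had KAP1 at the promoter. The same count was not made over all genes, so this split cannot be read as particular to the members. The largest ratios of Kap1 KD to control width were at Rps15a (2350 and 14533 bp), Rps24 (2599 and 12342 bp), Rps13 (985 and 5967 bp), Rpl8 (1047 and 5557 bp) and Rps4x (1608 and 7572 bp), all without KAP1 and chosen after their values were seen.

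Widths also depend on where the caller joined peaks. At Rps24, Rps15a and Rpl8 a further control peak lay in the same gene, and at Rps13 and Rps4x the next control peak lay 2084 and 3377 bp downstream, so that at all 5 the Kap1 KD peak reached a place where the control list had a second peak. The 2 genes narrower by at least 2 times under Kap1 KD were Rps3a (9420 and 2167 bp) and Rpl15 (5067 and 1997 bp), and at each another Kap1 KD peak lay in the gene, 921 and 417 bp further on. Their coverage of the gene was 100% and 78.9% for Rps3a and 99.9% and 88.1% for Rpl15. Of the 65 genes, coverage was equal in 40, higher under Kap1 KD in 23 and lower in 2. Over the 2777 protein-coding genes called in both conditions it was equal in 208, higher in 2004 and lower in 565. All 40 members with equal coverage were covered whole in both conditions and could not rise, so the counts of members cannot be set against those of longer genes.

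**Figure D5:**
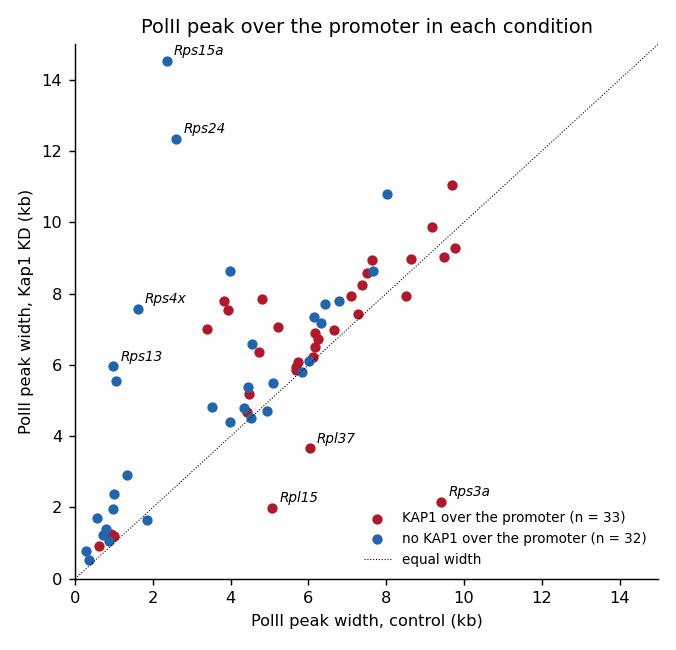
Each point is 1 of the 65 ribosomal protein genes with PolII over the promoter in both conditions, placed by the width of its highest-scoring promoter peak in the control (horizontal axis, kb) and under Kap1 KD (vertical axis, kb); the dotted line marks equal width. Most points lie on or just above the line, 56 above and 9 below it, with Rps15a and Rps24 farthest above and Rps3a farthest below.

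The genes of the P stalk, the flexible arm of the large subunit that binds translation factors, all had PolII over the whole gene in both conditions. KAP1 lay over the promoters of Rplp0 (score 180.07) and Rplp2 (125.52) and not over that of Rplp1. Control and Kap1 KD peaks were 6664 and 6976 bp wide at Rplp0, 5832 and 5794 bp at Rplp1, and 8507 and 7933 bp at Rplp2. Rpsa, a small-subunit protein also known as the laminin receptor, was covered whole in both conditions, had no KAP1, and had H3K27ac over 6.8% and H3K4me1 over 10.7% of the gene. Rps4x, on the X chromosome, had no KAP1, and PolII covered 36.1% of it in the control and 100% under Kap1 KD.

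Several members are paralogs of another ribosomal protein gene. Rpl10l, an intronless copy of Rpl10 known from testis, and Rpl39l had no region of any of the 8 lists in promoter or body. Rpl3l, the form of striated muscle, had no region over the promoter and no PolII, with H3K27ac over 2.38% and H3K4me1 over 5.79% of the gene. Rps27l, a target of p53, had H3K27ac over 30.9% of the gene and narrow PolII peaks of 280.0 bp (control) and 776 bp (Kap1 KD), with scores of 17 and 60. Of the 5 members with no KAP1, active mark or PolII over the promoter, the other two were Rps10 and Rpl13a, whose control PolII covered 80.2% and 35.8% of the gene. With a promoter at the start of any annotated transcript, Rps10, Rpl13a and Rpl18 had PolII in both conditions, and Rps10, Rpl18 and Rps2 had KAP1.

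Beside other gene sets of protein synthesis and turnover, the ribosomal protein genes had the largest share with PolII. Control PolII lay over the promoter of 49.3% of 67 translation factors (interval 37.7 to 60.9%), 29.9% of 77 mitochondrial ribosomal protein genes (20.8 to 40.8%) and 26.2% of 42 proteasome subunit genes (15.3 to 41.1%), and none of these intervals reached that of the 80 members. For KAP1 the shares were 41.8%, 33.8% and 26.2%, with intervals that overlapped that of the members. Whole-gene coverage by control PolII was found in 5 translation factors and in none of the mitochondrial ribosomal protein or proteasome genes, whose median lengths were 17959, 7654 and 11638 bp.

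Other transcripts share the space of these genes. Inside 30 of the 80 members (37.5%, against 2.12% of all protein-coding genes) lay 59 annotated small nucleolar RNA genes. Control PolII covered the whole gene in 23 of these 30 (76.7%) and in 19 of the 50 others (38%). Median lengths were 3178 and 3500 bp, and KAP1 lay over 12 of the 30 promoters. The classes also differ in other ways: control PolII lay over the promoter of 28 of the 30, against 66 of all 80 members. The others hold the long genes Rpl24 and Rpl11 and the paralogs Rpl10l, Rpl39l and Rpl3l. This difference in coverage was not tested. The promoter window of 13 members overlapped that of another protein-coding gene, among them Rpl7a (with Med22), Rpl12 (with Lrsam1), Rps27 (with Rab13) and Rps18 (with Vps52), and 14 members overlapped another gene, where a region cannot be assigned to 1 gene. Of 10 hepatocyte genes, 5 (Alb, Afp, Trf, Hnf4a and Foxa2) had H3K27ac in promoter or body, near the 41.0% of all protein-coding genes with it in the body, so the count is a weak check of the cell type. Control PolII was called at 1 of the 10, Foxa2, and Kap1 KD PolII at Trf and Foxa2. Of 7 annotated markers of blood, stromal and endothelial cells, Col1a1 and Pecam1 had H3K27ac and none had PolII in either condition.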

How the data were processed

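ChIP-seq reads were mapped by the authors with Bowtie to mm9, a build the submitters' processing notes also name. MACS, run by the authors with total input as background, gave the KAP1 and PolII lists, and ChIP-Part gave the histone mark regions. The program for PolIII and all options are not given in the sources used here. The deposited KAP1, PolII and PolIII lists carry the authors' score for each peak, and the deposited histone mark lists hold positions only. The meaning of the PolII and PolIII score is not stated, so scores were used as ranks within a list. Read depth is unknown.

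Positions were compared with the GENCODE M1 annotation of NCBIM37, the same build, by scripts in Python 3.11.15. A promoter reached 250 bp upstream and downstream of the annotated gene start, as in the study, and the gene body was the rest of the gene. A shared base (1 bp) counted as overlap. Overlap functions were tested on simulated data. Counts over members were set beside all protein-coding genes, with no test. Named genes were the 5 highest and 5 lowest KAP1 scores, genes with promoter PolII in 1 condition, the 5 most covered by PolII (ties by position), genes with H3K9me3 or PolIII, genes with no active list, the P stalk genes, Rpsa and the paralogs. 1 member is not reported here by name. Others were named after their values were seen. The members and lists were chosen with earlier results of these data known.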

Additional observations from a re-analysis of the deposited data

How the results depend on the processing

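In 11 results, 17 of 81 alternatives moved a count by more than 1.5 times or a median beyond the quartiles over members, and 64 did not. KAP1 promoters numbered 21 with the upper part of the list by score. H3K27ac promoters numbered 11 when at least 50% of the window had to be covered and 31 with the wider regions of the list alone. H3K4me1 promoters numbered 27 with a promoter of 500 bp to each side, 43 with 1000 bp, 29 at the start of any transcript, 1 with 50% of the window covered, 26 by centres within 1 kb and 6 with the wider regions alone. By centres within 1 kb, control PolII promoters numbered 18, Kap1 KD promoters 18 and promoters with both 13, because peaks that span a gene have their centre far inside it. In the gene body, KAP1 numbered 7 by centres, 2 with 50% of the body covered and 8 beyond 1000 bp, and by centres control PolII numbered 44 and Kap1 KD PolII 46. H3K9me3 promoters numbered 0 under each alternative. With the Kap1 KD list cut to the length of the control list, 67 promoters and 72 gene bodies had a peak. No paired analysis was possible because each antibody and condition has 1 library and no result comes from a test. Near-identical pseudogenes can take or lend reads in the exons, which was not tested, and without read counts a missing call cannot be told from a shallow library.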
